A study of Mus musculus with 59 samples.

Results

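The ESC-to-EB transition was followed here in cells whose RING1 proteins carry, by the study's description, mutations that remove their catalytic activity. The set comprises 8 of the 59 RNA-seq libraries of the series. Of these, 4 are the 4-OHT treated ESC and EB libraries (2 each) of the *Ring1A*-pm; *Ring1B*-cpm line, a mouse ESC line with point mutations in the RING1 genes. The other 4 belong to the *Ring1A/B* line, which carries ERT2-Cre and is a *Ring1a-/-* knockout in every group, controls included. In its mutant groups *Ring1b* is deleted as well. These 4 libraries were chosen by the condition in the names of their files. By label, 2 of these 4 are mutant EBs and 2 are control EBs. Names and labels differ in 4 of the 8 libraries of that line, and stage markers go against the labels of these 4. The *Ring1A/B* libraries therefore entered no test, and their values are given by label. All tests below rest on the 4 treated libraries and the 4 untreated libraries of the point mutant line.

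The line carries ERT2-Cre, a recombinase that 4-OHT switches on, and the point mutant allele *Ring1apm/pm* in every group, controls included. Untreated cells have an active *Ring1b*, and treated cells are *Ring1bpm/pm*. ESCs were kept with LIF and 3i, a mix of FGFR, MEK and GSK3 inhibitors, on MEF feeders. EBs were grown in suspension for 2 days without LIF and 3i. According to the sampling scheme of the study, 4-OHT was added to ESCs and to forming EBs at the start of this interval. By this scheme treated ESCs were treated beside the EBs, and their level is not the level from which treated EBs began. The text of the paper states such a timing for the *Ring1A/B* line and none for the point mutant line. When the activity was lost was not measured here. All 8 libraries come from one line, and no source used here says that replicates are separate cultures, so *p*-values measure the spread between these libraries. With 2 libraries a group, no exact permutation test over libraries can go below *p* = 0.333. Values are TPM, transcript abundance per length scaled to 1000000 per library. The depth is unknown, and 6216 to 7342 genes were listed at 0 per library.

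PRC1 is a repressive complex in which RING1A or RING1B attaches ubiquitin to histone H2A at CpG-rich promoters. It keeps developmental regulators silent in ESCs. On release from LIF and 3i, naive pluripotency factors are normally switched off and genes of the formative epiblast, the state that precedes the germ layers, are switched on.

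The transcripts of the targeted genes do not report the point mutations. *Rnf2*, which encodes RING1B, was at 63.4 and 54.5 TPM in treated ESCs and 64.6 and 59.8 TPM in treated EBs, against 85.8 and 66.6 TPM in untreated ESCs and 72.8 and 67.0 TPM in untreated EBs. *Ring1*, which encodes RING1A, lay between 9.11 and 15.6 TPM in all 8 libraries. The loss of activity itself was not measured in these files. The pluripotency factor *Pou5f1* was between 1265 and 1933 TPM in every library. The markers of day-2 EBs (*Fgf5*, *Otx2*, *Pou3f1*) had higher values in every EB than in every ESC library of the same treatment, while *Dnmt3b* did not in treated cells. The labelled stages thus hold for treated EBs, with lower marker levels.

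Few genes passed the test between treated EBs and treated ESCs. In the limma fit of log2(TPM + 0.1), 10 genes rose and 17 fell of 20279 tested (adjusted *p* under 0.05, 0.0493% and 0.0838% of all genes). Between untreated EBs and ESCs, 554 genes rose and 406 fell (2.73% and 2%). The split of the treated calls rested on single libraries, with 39 higher and 5 lower genes without treated EB replicate 1 (88.6% higher), 64 and 14 without treated EB replicate 2 (82.1%), 3 and 36 without treated ESC replicate 1 (7.69%) and 6 and 41 without treated ESC replicate 2 (12.8%). With the replicate number as a block, 55 rose and 47 fell in treated cells, so that the majority also turned, and 1153 rose and 865 fell in untreated cells. Before adjustment, 1974 (9.73%) and 4123 genes (20.3%) had *p* under 0.05. Of the 554 genes that rose in untreated EBs, 517 had a positive log2 fold change in treated cells, with a median of 0.66 against 2.04, and of the 406 that fell, 384 had a negative one, with a median of -0.67 against -1.65. The untreated values are those that chose these genes. Over all 20279 genes, 9791 had a positive and 10135 a negative log2 fold change in treated cells, with a median of 0.00. The 2 stage changes differed past the threshold for 2 genes only, 1 in each direction (0.00493% each way), with 1076 genes (5.31%) under an unadjusted *p* of 0.05. No treated call survived a limma fit of the treated libraries alone (0 genes at adjusted *p* under 0.05, 1945 at unadjusted *p* under 0.05) or the loss of either untreated ESC library, which share the estimate of the spread (0 genes each). Untreated calls numbered 464 in the fit of untreated libraries alone.

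To ask which genes normally move at this stage, a list was taken from another line. In control EBs of the *Pcgf1* line (5 libraries) against its control ESCs (4 libraries), 728 genes passed the same threshold with more than 2 on the log2 scale and 815 with less than -2. Of these, 727 and 805 were tested in the point mutant line. Of the 727 induced genes, 3 rose in treated EBs and 189 in untreated EBs. Their median log2 fold change was 0.37 in treated and 1.17 in untreated cells. Both treated EB libraries exceeded both treated ESC libraries for 316 of the 727 (43.5%), where 19.1% of all genes did so, and in untreated cells for 545 (75%, against 23.3% of all genes). The treated change lay below the untreated change for 619 of them, and for 10792 of all 20279 genes. Of the 805 reduced genes, 6 fell in treated and 147 in untreated EBs, with medians of -0.24 and -0.71. The treated and untreated counts of both lists were smaller whichever library was left out. Treated EBs lay below treated ESCs without overlap for 296 (36.8%, against 20.4% of all genes) and untreated EBs for 436 (54.2%, against 22.7%). The difference of the stage changes passed the test for 1 induced gene, *Car4*, and for no reduced gene.

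**Figure D1:**
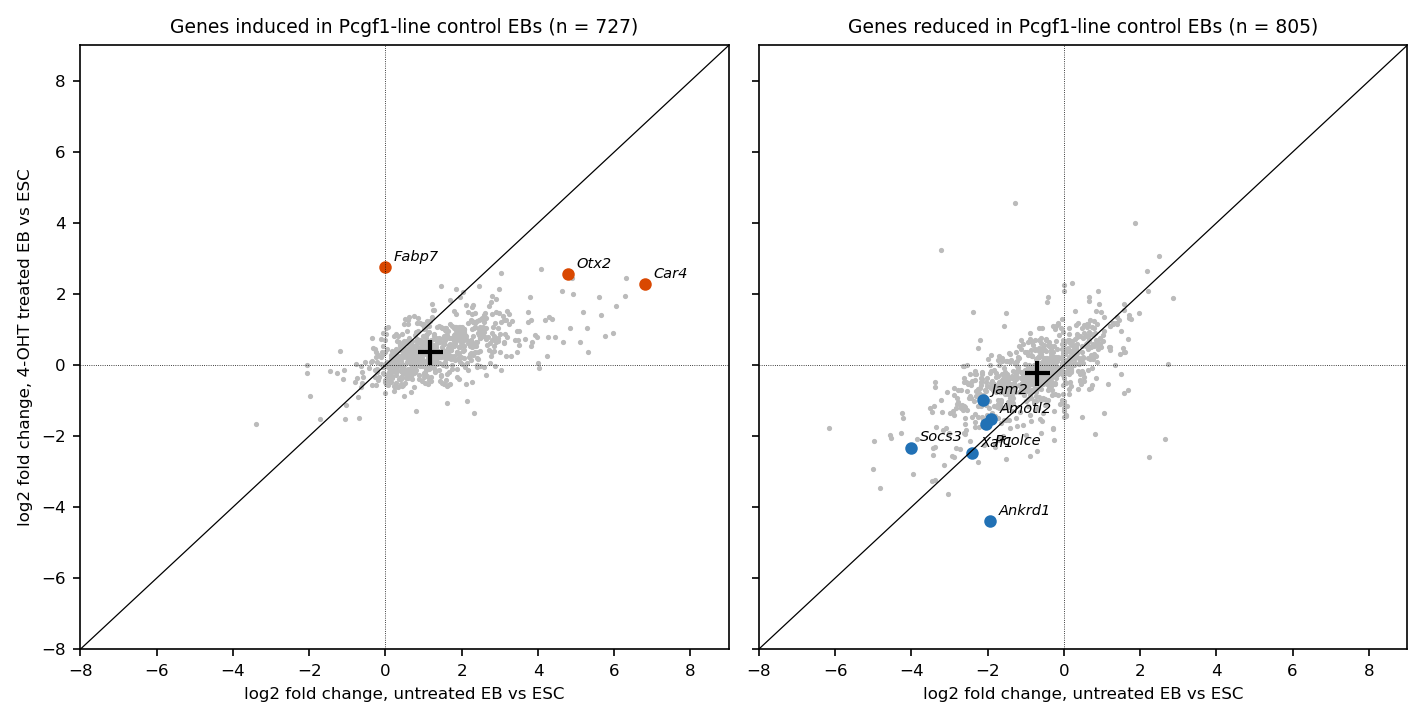
Log2 fold change of EBs against ESCs in 4-OHT treated cells (y axis) and in untreated cells (x axis) for the 727 induced and 805 reduced genes of the *Pcgf1*-line lists. Grey points are genes, coloured points the 3 and 6 genes called in treated cells, the cross is the pair of medians, and the line marks equal change. Most induced genes lie below the line and most reduced genes above it.

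Levels differed at both stages. Treated ESCs held 79 of the 727 induced genes at a higher level than untreated ESCs and 2 at a lower level. The median log2 difference was 0.88, and of all genes 2.34% were higher and 0.197% lower. At the EB stage, 33 of the induced genes were higher and 42 lower in treated than in untreated EBs (median -0.02, against 3.76% and 0.764% of all genes). Of the 805 reduced genes, 126 were higher and 1 lower in treated EBs (median 0.77), while in ESCs 25 were higher and 7 lower (median 0.29). Over all genes, treated cells were shifted up by a median of 0.12 in ESCs and 0.10 in EBs on this scale, a shift that median-of-ratios scaling removed. Of all genes, 475 were higher and 40 lower in treated ESCs (92.2% higher), and 167 and 40 after quantile normalization (80.7%). In EBs 763 were higher and 155 lower (83.1%), and 634 and 295 after median-of-ratios scaling (68.2%) or 481 and 299 after quantile normalization (61.7%). Leaving out 1 untreated library of the stage compared turned this balance, and leaving out any other library did not. Without untreated ESC replicate 1 or 2, 17 and 8 genes were higher and 18 and 22 lower in treated ESCs (48.6% and 26.7% higher), and without untreated EB replicate 1 or 2, 10 and 28 were higher and 23 and 29 lower in treated EBs (30.3% and 49.1%). The induced genes called higher in treated ESCs then numbered 0 to 4, and the reduced genes called higher in treated EBs 0 to 53, over the 8 libraries left out in turn. No gene was called between treated and untreated ESCs in a limma fit of the ESC libraries alone, where 3669 genes had an unadjusted *p* under 0.05, and 169 were between EBs in the fit of EB libraries alone.

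Of the 15 genes on the LIF-STAT3 list, 1 passed the test between treated EBs and ESCs. *Socs3*, a feedback inhibitor that STAT3 induces on LIF signalling, was at 123 and 110 TPM in treated ESCs and 26.4 and 20.3 TPM in treated EBs. It fell by 2.33 on the log2 scale (SE 0.21, adjusted *p* = 0.0184). In untreated cells it went from 118 and 110 to 5.85 and 8.40 TPM, a log2 change of -4.0. Both EB groups lay well below both ESC groups, and the treated EBs remained above the untreated EBs (log2 difference 1.71, adjusted *p* = 0.0121). *Stat3* itself was at 57.4 and 55.7 TPM in treated ESCs and 21.8 and 28.1 TPM in treated EBs, close to the 18.9 and 26 TPM of untreated EBs. Its log2 fold changes were -1.19 in treated cells (adjusted *p* = 0.136) and -1.53 in untreated cells (adjusted *p* = 0.0103). Over the list, the median was -0.70 in treated cells, where 1 gene fell and none rose (0.0838% and 0.0493% of all genes), and -1.53 in untreated cells, where 8 fell and 1 rose (2% and 2.73%). Treated EBs lay below treated ESCs without overlap for 10 of the 15 (66.7%, against 20.4% of all genes). The treated call of *Socs3* was lost whichever of the 8 libraries was left out.

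Several naive pluripotency factors were higher in treated than in untreated EBs (5 of 20 higher and 1 lower, against 3.76% and 0.764% of all genes, and 0 to 2 higher without 1 library). *Klf4*, a naive factor that LIF sustains, was at 298 and 334 TPM in treated ESCs and 104 and 122 TPM in treated EBs. Untreated ESCs held 262 and 333 TPM, and untreated EBs 37.2 and 65.1 TPM. The treated groups did not overlap and their log2 fold change of -1.49 missed the threshold (adjusted *p* = 0.13), while the untreated change of -2.58 passed (adjusted *p* = 0.00331). *Tbx3*, another naive factor, was at 175 and 145 TPM in treated ESCs and 110 and 120 TPM in treated EBs, against 22.4 and 34.3 TPM in untreated EBs. Treated and untreated ESCs overlapped for it, and treated EBs exceeded untreated EBs by 2.05 on the log2 scale (adjusted *p* = 0.0099). *Nanog*, which stabilises pluripotency, was at 810 and 724 TPM in treated ESCs and 613 and 679 TPM in treated EBs, and fell to 218 and 383 TPM in untreated EBs. *Esrrb*, *Tfcp2l1* and *Zfp42* gave log2 fold changes of -0.66, -1.31 and -0.58 in treated cells and -1.44, -3.19 and -1.51 in untreated cells, where all 3 fell. Of 20 naive genes tested, none was called in treated EBs and 11 fell in untreated EBs (2% of all genes), with medians of -0.36 (-0.24 without treated ESC replicate 1) and -1.38. Treated EBs lay below treated ESCs without overlap for 10 of the 20 (50%, against 20.4% of all genes). The stage changes of *Klf4*, *Tbx3* and *Nanog* differed between treated and untreated cells by 1.10, 2.15 and 1.24 on the log2 scale, which did not pass the test (adjusted *p* = 0.712, 0.107 and 0.536). Of 12 core pluripotency genes none was called at either treatment, and *Sox2* was between 340 and 631 TPM in all libraries.

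Among genes of the formative epiblast, 1 passed the test in treated EBs. *Otx2*, a transcription factor that marks the exit from the naive state, was at 7.29 and 9.20 TPM in treated ESCs and 38.4 and 61.8 TPM in treated EBs. It rose by 2.56 on the log2 scale (SE 0.25, adjusted *p* = 0.0184). In untreated cells it rose from 7.86 and 6.61 to 204 and 197 TPM. The levels in treated and untreated ESCs overlapped, and the log2 difference of treated from untreated EBs was -2.04 (adjusted *p* = 0.0119). *Fgf5*, a growth factor of the epiblast, was at 0.300 and 0.703 TPM in treated ESCs and 3.06 and 2.91 TPM in treated EBs, against 44.0 and 22.7 TPM in untreated EBs. The treated groups did not overlap, with a log2 fold change of 2.45 that missed the threshold (adjusted *p* = 0.197), and the log2 difference of treated from untreated EBs was -3.36 (adjusted *p* = 0.0197). *Pou3f1*, a POU factor of the same state, was at 10 and 7.85 TPM in treated ESCs and 18.7 and 12.9 TPM in treated EBs, and at 90.0 and 37.3 TPM in untreated EBs. *Dnmt3b*, a de novo DNA methyltransferase, was at 78.4 and 67.2 TPM in treated ESCs and 64.8 and 67.6 TPM in treated EBs, while untreated EBs reached 318 and 168 TPM. The treated groups overlapped for it. *Dnmt3a*, the related methyltransferase, was at 29.3 and 27.2 TPM in treated ESCs and 75.4 and 83.4 TPM in treated EBs (log2 fold change 1.49, adjusted *p* = 0.0513). In untreated cells it went from 25.7 and 18.0 to 174 and 148 TPM (log2 fold change 2.90). The log2 difference of treated from untreated EBs was -1.02 for *Dnmt3a* (adjusted *p* = 0.0326). *Lef1*, a Wnt effector, gave 2.45 in treated and 4.88 in untreated cells. Of 21 formative genes tested, 1 rose in treated EBs, namely *Otx2* (0.0493% of all genes rose), and 13 rose and 2 fell in untreated EBs (2.73% and 2%), with medians of 0.84 and 2.32. Treated EBs lay above treated ESCs without overlap for 15 of the 21 (71.4%, against 19.1% of all genes). Untreated EBs lay above untreated ESCs for 18 of the 21 and below for 2 (85.7% and 9.52%, against 23.3% and 22.7% of all genes). In EBs, 8 of them were lower and 2 higher in treated than in untreated cells (0.764% and 3.76% of all genes), and 0 to 3 were lower without 1 library.

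**Figure D2:**
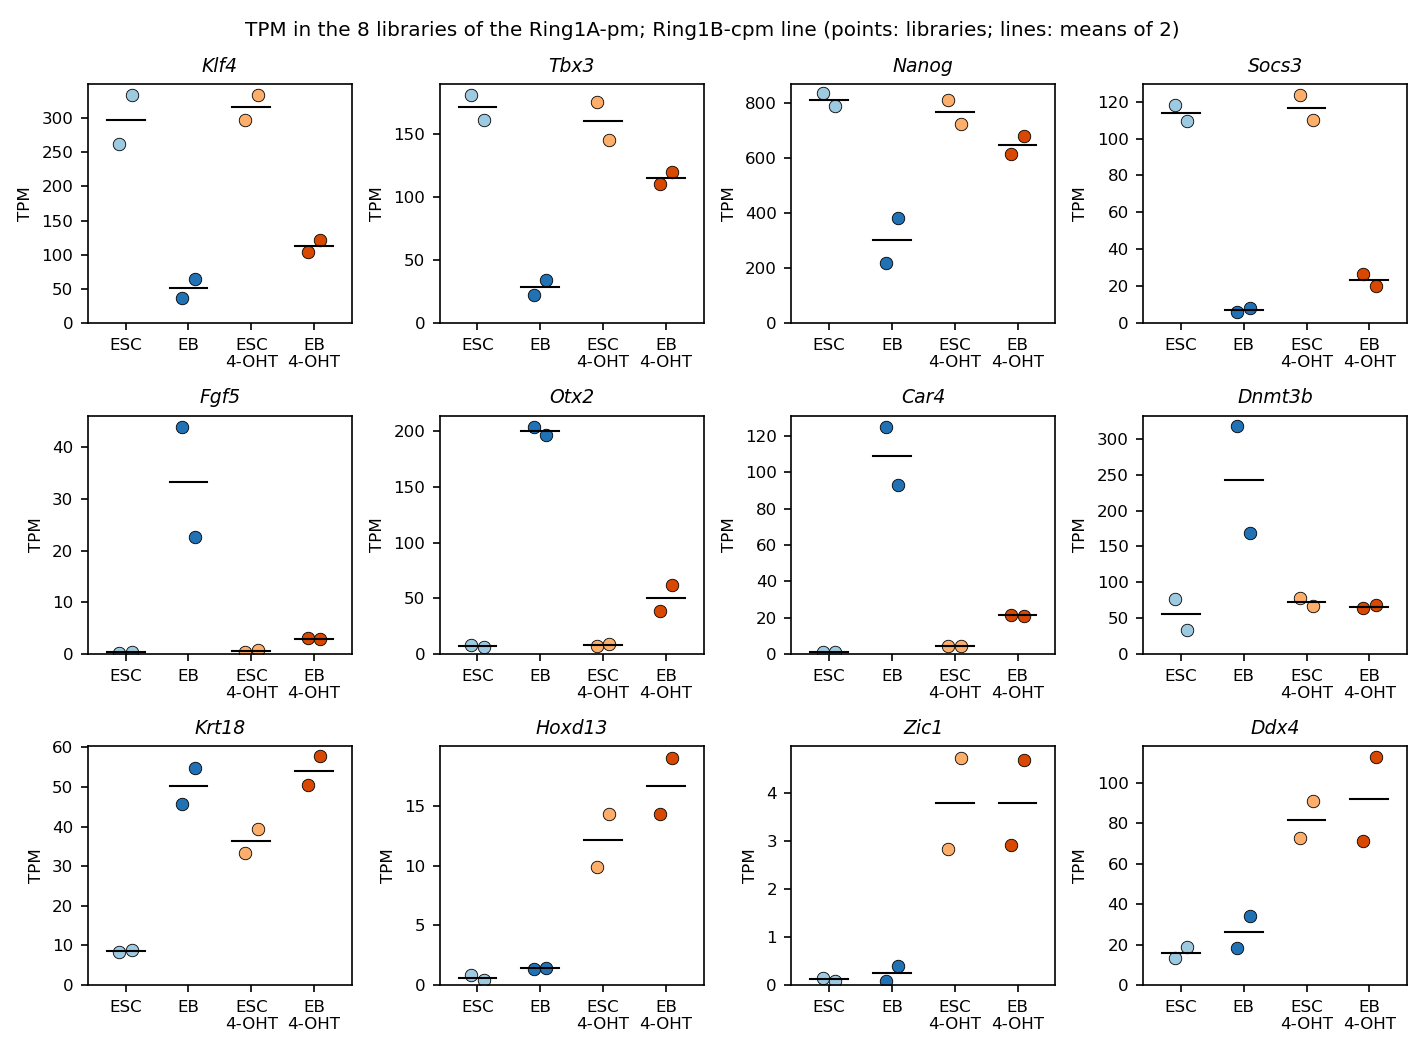
TPM of 12 genes (y axes, linear from 0) in the 8 libraries of the point mutant line by group (x axes), with 1 point per library and a line at the mean of 2. *Klf4*, *Tbx3*, *Nanog* and *Socs3* are higher in treated than in untreated EBs, and *Fgf5*, *Otx2* and *Car4* are lower. *Dnmt3b* lies lower in both treated EB libraries without passing the test. *Krt18* is higher in treated than in untreated ESCs and at a like level in both EB groups. *Hoxd13*, *Zic1* and *Ddx4* are high in treated cells of both stages.

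The other genes that rose in treated EBs were *Car4*, *Gadd45a*, *Mt1*, *Pcsk1n*, *Rbpms2* and *Fabp7*. *Car4*, a carbonic anhydrase, went from 4.50 and 4.17 to 21.5 and 21.2 TPM in treated cells (log2 fold change 2.27, adjusted *p* = 0.0184) and from 0.892 and 0.843 to 125 and 92.8 TPM in untreated cells (6.80). Treated ESCs lay above and treated EBs below their untreated counterparts, and the 2 stage changes differed by -4.53 (adjusted *p* = 0.00904). *Gadd45a*, a stress-response gene, rose from 47.6 and 54.3 to 126 and 138 TPM, and *Rbpms2*, an RNA-binding protein gene, from 185 and 194 to 337 and 392 TPM. Untreated EBs reached 274 and 223 TPM of *Gadd45a* and 701 and 712 TPM of *Rbpms2*. *Mt1*, a metallothionein, rose from 469 and 514 to 1303 and 1220 TPM in treated cells and from 449 and 470 to 806 and 750 TPM in untreated cells. The 2 changes of *Mt1* differed by 0.60, short of the threshold (adjusted *p* = 0.476). *Pcsk1n*, an inhibitor of a prohormone convertase, rose from 11.8 and 14.3 to 36.1 and 33.5 TPM. *Fabp7* was at 0.549 and 0.598 TPM in treated EBs and listed at 0 in the other 6 libraries.

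Among the genes that fell in treated EBs beside *Socs3*, *Xaf1*, an interferon-inducible gene, went from 27.7 and 27.8 to 5.10 and 4.74 TPM, with a like size in untreated cells (log2 fold changes -2.47 and -2.40). *Ankrd1*, a YAP target, was at 2.38 and 1.66 TPM in treated ESCs and listed at 0 in treated EBs. *Defa4* was at 1.83 and 0.894 TPM in treated ESCs and listed at 0 elsewhere. To complete the list, *Pcolce*, *Amotl2*, *Jam2*, *Irf2bpl* and *Rnf7*, named after their values were seen, gave log2 fold changes between -1.66 and -0.92. The remaining 11 of the 27 called entries were microRNA or snoRNA entries, 3 higher and 8 lower. Because TPM divides by length, such short entries rest on few reads, and the libraries were made from poly(A) RNA. *Mir9-3* and *Mir1946b* were listed at 0 in treated ESCs and at 1.55 to 3.15 TPM in treated EBs, as was *Mir7045* at 2.21 and 4.82 TPM. *Mir7666*, *Mir6913*, *Mir6942*, *Mir150*, *Mir6927* and *Mir6946* were listed at 0 in treated EBs and at 2.11 to 8.19 TPM in treated ESCs. *Snora70* fell from 44.2 and 50 to 6.49 and 10.6 TPM, and *Snord69*, named after its values were seen, from 68.7 and 72.1 to 16.5 and 23.2 TPM. Over the 8 libraries left out in turn, the call of *Xaf1* was kept 4 times, those of *Otx2* and *Mt1* 2 times each, and those of *Socs3*, *Car4*, *Gadd45a*, *Pcsk1n*, *Rbpms2* and *Ankrd1* were lost each time. With all libraries, 16 genes other than these entries were called in treated EBs, and 13 of the 16 were called in the same direction in untreated EBs.

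Of 23 epithelial genes, 11 were higher in treated than in untreated ESCs, none was lower and 12 did not pass the test (2.34% and 0.197% of all genes were higher and lower). *Krt18*, a keratin of simple epithelia, was at 33.4 and 39.4 TPM in treated ESCs and 50.4 and 57.7 TPM in treated EBs. Untreated ESCs held 8.40 and 8.83 TPM, and untreated EBs 45.7 and 54.7 TPM. The EB levels overlapped, and treated ESCs exceeded untreated ESCs by 2.06 on the log2 scale (adjusted *p* = 0.00714). The treated stage change of 0.57 missed the threshold (adjusted *p* = 0.357), the untreated change of 2.52 passed it, and their difference of -1.95 had an adjusted *p* of 0.0732. *Esrp1*, an epithelial splicing regulator, was at 12.3 and 18.5 TPM in treated ESCs and 17.3 and 27.6 TPM in treated EBs, against 1.59 and 0.710 TPM in untreated ESCs. Untreated EBs held 22.7 and 11.7 TPM of *Esrp1*, which overlapped the treated EBs. *Krt8*, the partner of *Krt18*, was between 29.7 and 34.0 TPM in the 4 treated and between 8.90 and 11.9 TPM in the 4 untreated libraries, with no stage call in either. *Cdh1*, which encodes E-cadherin, was not called in any of these comparisons and lay between 177 and 272 TPM in treated libraries. Of 23 epithelial genes, none was called in treated EBs against ESCs and 7 rose and 1 fell in untreated EBs (2.73% and 2% of all genes). In EBs 4 were higher in treated cells (3.76% of all genes). Treated EBs lay above treated ESCs without overlap for 12 of the 23 (52.2%, against 19.1% of all genes). Untreated EBs lay above untreated ESCs for 16 of the 23 and below for 3 (69.6% and 13%, against 23.3% and 22.7% of all genes). Without 1 library, 0 to 2 of them were called higher in treated ESCs.

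Of 42 *Hox* and *Cdx* genes tested, 10 were higher in treated than in untreated ESCs (2.34% of all genes were) and 20 in EBs (3.76%), *Hoxa9* among both, and none was called between the treated stages. Without 1 library, 0 to 1 were called in ESCs and 0 to 9 in EBs. *Hoxd13*, a posterior HOX gene, was at 9.85 and 14.4 TPM in treated ESCs and 14.3 and 19 TPM in treated EBs, against 0.800 and 0.378 TPM in untreated ESCs and 1.35 and 1.42 TPM in untreated EBs. *Zic1*, a neural factor, was at 2.82 and 4.73 TPM in treated ESCs and 2.91 and 4.67 TPM in treated EBs, and below 0.4 TPM in the 4 untreated libraries. For both genes all 4 treated libraries lay above all 4 untreated ones, and the 2 treated stages overlapped. *Cdx1*, which Wnt signalling induces, was at 71.8 and 102 TPM in treated ESCs and 22.8 and 27.8 TPM in treated EBs, against 46.8 and 75 and then 0.260 and 1.81 TPM in untreated cells. Its treated groups did not overlap (log2 fold change -1.76, adjusted *p* = 0.476), and treated EBs exceeded untreated EBs by 4.93 (adjusted *p* = 0.0146). *Sp5*, another Wnt target, gave -1.09 in treated and -2.81 in untreated cells.

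In the list of 30 neural genes, 9 were higher in treated ESCs and 10 in treated EBs than in untreated cells (2.34% and 3.76% of all genes), and none was called between the treated stages. Without 1 library, none was called in ESCs and 0 to 3 were in EBs. *Sox11*, a neural SOX factor, was at 6.68 and 6.91 TPM in treated ESCs and 8.80 and 10.8 TPM in treated EBs, where untreated cells rose from 2.37 and 2.22 to 12.8 and 12.7 TPM. *Pax6* rose in untreated cells from 0.0696 and 0.0986 to 1.18 and 1.25 TPM and was at 0.536 and 1.17 TPM in treated ESCs. Of 14 proneural genes, *Neurog1* and 1 other were higher in treated than in untreated ESCs (2.34% of all genes were). Both calls were lost whichever library was left out. The median log2 fold change of the neural list over the stages was 0.31 at both treatments, and it ranged from 0.0031 to 0.56 in treated cells without treated ESC replicate 1 or 2 and from 0.13 to 0.44 in untreated cells without untreated EB replicate 2 or 1.

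Some endoderm and mesoderm regulators were higher in treated ESCs as well. *Gata4* and *Gata6*, which direct primitive endoderm, were at 4.51 and 7.69 and at 11.0 and 8.73 TPM in treated ESCs, and at 7.48 and 10.3 and at 12.7 and 11.3 TPM in treated EBs. Untreated ESCs held 0.586 and 0.877 TPM of *Gata4* and 2.13 and 1.52 TPM of *Gata6*, and untreated EBs 3.40 and 2.08 and 3.99 and 3.73 TPM. Both were higher in treated than in untreated ESCs (adjusted *p* = 0.0245 and 0.0143). *Sox17* was at 2.05 and 1.33 TPM in treated ESCs and 3.85 and 1.74 TPM in treated EBs. Of 20 endoderm genes, none was called between the treated stages, and treated EBs lay above treated ESCs without overlap for 12 (60%, against 19.1% of all genes). Untreated EBs lay above untreated ESCs for 10 of the 20 and below for 4 (50% and 20%, against 23.3% and 22.7% of all genes). The median log2 fold change was 0.55 in treated cells (0.32 without treated EB replicate 2) and 0.69 in untreated cells (0.43 without untreated ESC replicate 2). In untreated EBs 5 rose and 2 fell (2.73% and 2% of all genes), among them *Lama1*, a laminin gene, whose log2 fold change was -2.24 there and -0.68 in treated cells. In treated ESCs 5 were higher than in untreated ESCs (2.34% of all genes), and none was whichever library was left out. *Hand1*, a mesoderm and trophoblast factor, was at 3.32 and 4.25 TPM in treated ESCs and 5.29 and 6.09 TPM in treated EBs, with less than 0.9 TPM in untreated cells. *Fgf8* rose from 0.502 and 0.593 to 4.38 and 5.50 TPM in untreated cells and went from 3.64 and 4.34 to 5.81 and 7.03 TPM in treated cells. *T* (brachyury) and *Eomes*, which mark the primitive streak, had log2 fold changes of -0.59 and 0.12 in treated cells. Of 25 streak and mesoderm genes, none was called between the treated stages, and 4 and 7 were higher in treated than in untreated ESCs and EBs (2.34% and 3.76% of all genes), or none and 0 to 3 without 1 library.

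**Figure D3:**
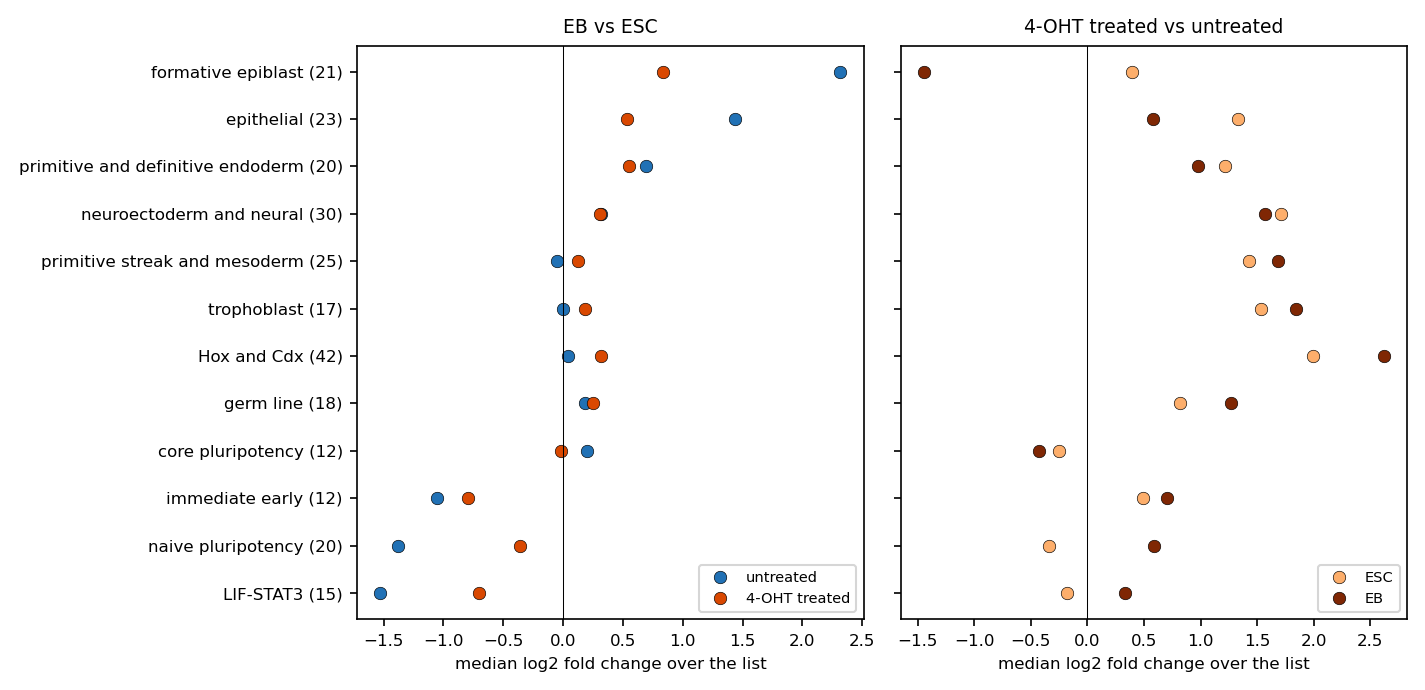
Median log2 fold change (x axes) of 12 gene lists, with the number of genes tested in parentheses, for EBs against ESCs in untreated and treated cells (left) and for treated against untreated cells in ESCs and EBs (right). The formative, epithelial, naive and LIF-STAT3 medians lie nearer to 0 in treated than in untreated cells, and the *Hox* and *Cdx* medians on the right are 1.99 and 2.62.

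Some germ line genes were higher in treated cells as well. *Ddx4*, a germ cell RNA helicase, was at 72.5 and 90.8 TPM in treated ESCs and 71.2 and 113 TPM in treated EBs, against 13.2 and 18.7 and then 18.6 and 34.4 TPM in untreated cells. *Tdrkh*, of the piRNA pathway, was at 30.5 and 42.8 and then 47.9 and 45.5 TPM in treated cells and between 6.31 and 13.4 TPM in untreated cells. Of 18 germ line genes, 7 were higher in treated ESCs and 8 in treated EBs (2.34% and 3.76% of all genes), or 2 to 3 and 1 to 6 without 1 library. *Zscan4c*, of the 2-cell-like state, was at 551 and 209 TPM in treated ESCs and 687 and 384 TPM in treated EBs, and between 20.3 and 83.2 TPM in untreated libraries. Of the 2-cell-like list (11 genes tested), none was called between treated and untreated ESCs. In treated EBs 3 were higher and none lower (3.76% and 0.764% of all genes). The CDK inhibitor *Cdkn1c* was at 65.5 and 83.6 TPM in treated ESCs and 155 and 194 TPM in treated EBs. It was higher in treated cells at both stages and its treated stage change of 1.23 missed the threshold (adjusted *p* = 0.0797). *Cdkn2a* was at 58.1 and 65.2 and then 77.1 and 74.6 TPM in treated cells and between 15.7 and 39.4 TPM in untreated cells. Its differences between treated and untreated cells missed the threshold of the limma test (adjusted *p* = 0.0654 in ESCs and 0.0669 in EBs).

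The remaining lists gave no call between the treated stages. They are the trophoblast (17 tested), 2-cell-like (11), ERK feedback (14), Wnt target (17), Nodal pathway (13), immediate early (12), CDK inhibitor (7), DNA methylation (10), glycolysis (21), PRC1 (23), PRC2 (11), blood and endothelial (11), muscle and heart (11) and fibroblast (22) lists. The immediate early list had medians of -0.79 in treated cells (-0.34 without treated ESC replicate 2) and -1.05 in untreated cells (-0.56 without untreated ESC replicate 2). Its member *Egr1* was at 23.7 and 92.7 TPM in treated ESCs and 5.95 and 2.33 TPM in treated EBs. The Nodal target *Lefty1* was at 49.8 and 94.5 and then 166 and 227 TPM. Its list did not rise as a whole, with a treated median of -0.042 (-0.21 and 0.16 without treated EB replicate 2 and 1). Of the 13 Nodal pathway genes, 6 had a positive and 7 a negative treated change. In untreated EBs 3 of them fell and none rose (2% and 2.73% of all genes). The glycolysis list had medians of 0.60 and 0.43, which were 0.35 and 0.092 without EB replicate 2 of the same treatment. Treated EBs lay above treated ESCs without overlap for 14 of its 21 genes (66.7%) and below for none. They did so for 5 CDK inhibitor, 9 germ line and 10 fibroblast genes (71.4%, 50% and 45.5%), and lay below for 1, 2 and 7. Of all genes, 19.1% lay above and 20.4% below.

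Fibroblast genes were followed because ESCs were grown on feeders. The summed TPM of the 22 fibroblast genes was 191 and 164 in treated ESCs, 151 and 171 in treated EBs, 85.1 and 76.7 in untreated ESCs and 71.5 and 95.8 in untreated EBs. The sum of *Col1a1*, *Col1a2*, *Col3a1* and *Thy1* was 58.6 to 63.3 TPM in treated ESCs and 61.1 to 66.2 TPM in treated EBs, so the treated stages overlapped. Most of it was *Thy1*, at 38.5 and 40.2 TPM in treated ESCs and 46.1 and 45.1 TPM in treated EBs. In untreated cells the sum was lower, at 34.6 to 39.0 TPM in ESCs and 27.3 to 29.8 TPM in EBs, without overlap between the stages. Its part in the differences between treated and untreated cells was not tested. In bulk libraries, more cells of a type and more RNA per cell cannot be told apart.

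The study's Group 1, 2 and 3 genes, sorted by whether RING1B binding at them rose, stayed or fell between control ESCs and EBs of the *Pcgf1* line, are given by their counts and medians. The 153 Group 1 genes tested had median log2 fold changes of -0.11 in treated and -0.42 in untreated cells. The treated median had no stable sign, at 0.093 without treated EB replicate 1 and -0.26 without treated EB replicate 2, and the untreated median was -0.70 without untreated EB replicate 2. The calls were 1 higher and 1 lower gene in treated EBs (0.0493% and 0.0838% of all genes). In untreated EBs they were 1 higher and 25 lower genes (2.73% and 2% of all genes). In treated EBs 28 of them were above untreated EBs and none below (3.76% and 0.764% of all genes). Fewer were above whichever library was left out. The 66 Group 3 genes had medians of 0.57 and 1.67 (0.32 in treated cells without treated ESC replicate 1). Of these, 1 rose in treated EBs (0.0493% of all genes) and 24 rose in untreated EBs (2.73%). *Sox4*, a Group 3 gene, was at 17.7 and 21.8 TPM in treated ESCs and 32.9 and 37.6 TPM in treated EBs, against 50.2 and 51.8 TPM in untreated EBs. *Grhl2*, an epithelial regulator in the same group, was at 3.55 and 3.74 and then 6.99 and 6.79 TPM in treated cells. The 1357 Group 2 genes had medians of 0.14 and 0.08 over the stages (0.00 without EB replicate 2 of the same treatment). Of these, 163 were higher in treated ESCs and none lower (2.34% and 0.197% of all genes). In treated EBs 227 of the 1357 were higher and 4 lower (3.76% and 0.764% of all genes). The median log2 difference in EBs was 0.93 for Group 2 and 0.74 for Group 1, so the higher level in treated EBs was not particular to Group 1. Far fewer Group 2 genes were higher in ESCs, and fewer in EBs, whichever library was left out.

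The promoters of *Klf4* (high in treated EBs), *Fgf5* (low in treated EBs) and *Zic1* (high in both treated stages) are shown as examples of CpG-rich sequence. PRC1 binding at them was not examined here. The 250 bases before each start are given from RefSeq (GRCm38.p6), in the direction of the gene, with each CG in capitals. They lie at chr4:55532476-55532725 (minus strand), chr5:98253934-98254183 (plus strand) and chr9:91365769-91366018 (minus strand), and no coordinate was transferred to mm9, the build of the files, where the genes span chr4:55540013-55545347, chr5:98683203-98706049 and chr9:91252896-91260648.
Klf4: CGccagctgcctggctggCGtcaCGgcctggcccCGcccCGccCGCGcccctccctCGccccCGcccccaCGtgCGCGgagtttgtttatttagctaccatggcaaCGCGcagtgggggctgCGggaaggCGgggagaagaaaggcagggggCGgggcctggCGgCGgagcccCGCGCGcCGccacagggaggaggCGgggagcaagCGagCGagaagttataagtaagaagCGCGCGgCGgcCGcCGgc
Fgf5: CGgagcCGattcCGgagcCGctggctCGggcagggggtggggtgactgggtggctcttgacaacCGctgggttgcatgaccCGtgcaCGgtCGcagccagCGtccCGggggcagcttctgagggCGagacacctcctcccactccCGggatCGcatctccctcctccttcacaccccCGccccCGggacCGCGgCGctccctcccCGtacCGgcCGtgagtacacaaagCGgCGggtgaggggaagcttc
Zic1: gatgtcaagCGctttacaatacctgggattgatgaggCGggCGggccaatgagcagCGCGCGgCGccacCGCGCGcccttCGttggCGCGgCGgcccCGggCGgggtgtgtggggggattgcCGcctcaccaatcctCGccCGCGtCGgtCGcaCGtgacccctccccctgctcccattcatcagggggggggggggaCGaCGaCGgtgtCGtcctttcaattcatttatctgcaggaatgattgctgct
The windows hold 32, 24 and 27 CG, where the median of the 32851 promoter windows in the table is 6 and 92.1% hold at least 1. All 3 hold more CG than that median. *Krt18*, raised in treated ESCs, has 12. CG was the only motif searched, and it reads the same on both strands.

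In the *Ring1A/B* line, which is *Ring1a-/-* in every group and has *Ring1bf/f* (control) or deleted *Ring1b* (mutant), stage markers and labels went apart. Libraries labelled control ESC held 754 and 766 TPM of *Klf4* and those labelled control EB 665 and 709 TPM, whereas those labelled mutant ESC held 9.90 and 7.38 TPM and those labelled mutant EB 117 and 118 TPM. *Fgf5* was at 0.816 and 0.465 TPM by label in control ESCs, 0.540 and 0.791 TPM in control EBs, 28 and 27.5 TPM in mutant ESCs and 8.71 and 9.91 TPM in mutant EBs. *Hoxd13* was at 31.9 and 32.9 TPM in control EBs by label and 40.5 and 40.4 TPM in mutant EBs, and between 1.53 and 2.61 TPM in the other 4 libraries. The libraries labelled mutant ESC thus had more *Fgf5* and less *Klf4* than those labelled mutant EB, and those labelled control EB were nearer to those labelled control ESC than to those labelled mutant EB in both, so no direction between stages was drawn from this line. Of the 4 libraries chosen by file name, the 2 labelled control EB held 269 and 283 TPM of *Tbx3*, 139 and 154 TPM of *Socs3*, 10 and 10.4 TPM of *Otx2* and 76.6 and 77.5 TPM of *Dnmt3b*. The 2 labelled mutant EB held 208 and 206 TPM of *Tbx3*, 26 and 24.6 TPM of *Socs3*, 58.2 and 54.3 TPM of *Otx2* and 273 and 270 TPM of *Dnmt3b*. *Rnf2* was at 63.2 and 62.9 TPM in libraries labelled mutant ESC, below the other 6 libraries, and at 78.1 and 80.5 TPM in those labelled mutant EB and 77.2 to 95.1 TPM in those labelled control. Stage markers go against the label mutant ESC, so no loss of *Rnf2* was read from these values.

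**Figure D4:**
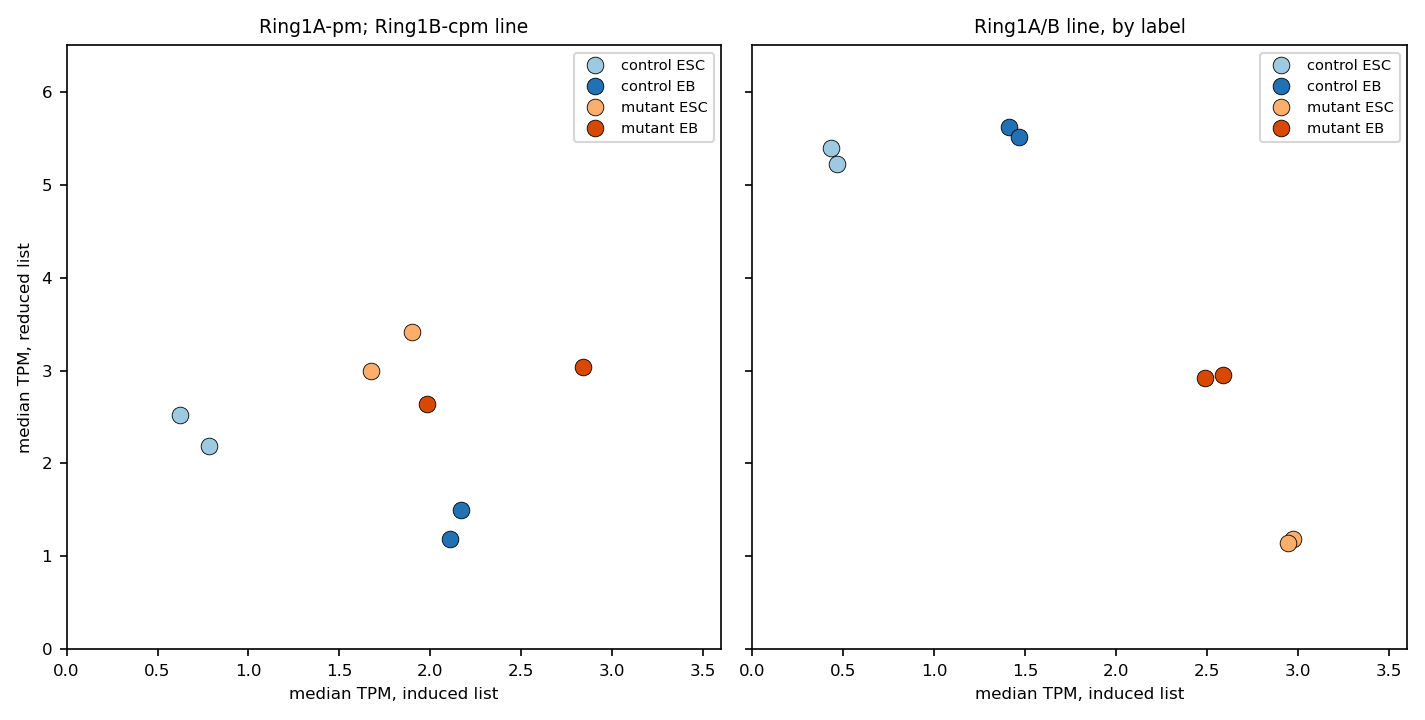
Median TPM of the 815 reduced genes (y axes) against that of the 728 induced genes (x axes) per library, for the point mutant line and for the *Ring1A/B* line by label. In the point mutant line, untreated ESCs and EBs lie apart on both axes (0.622 and 0.782 against 2.11 and 2.17 TPM for induced genes), and treated ESCs (1.68 and 1.90 TPM) and EBs (1.98 and 2.84 TPM) lie nearer to each other.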

How the data were processed

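RNA-seq of ESCs and EBs was used. According to the paper, poly(A) RNA was sequenced as single-end reads, and the authors aligned them with STAR (version 2.5.2b) to mm9 and counted reads on exons. The authors deposited TPM per library, with genes by symbol (24391 genes), and used DESeq2 for their own fold changes. The step from counts to TPM is not given in the sources used here. No counts were used, so the depth is unknown and no count model was run.

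In R (version 4.3.3), log2(TPM + 0.1) of the 8 libraries of the *Ring1A*-pm; *Ring1B*-cpm line was fitted with limma (version 3.58.1), with a mean for each of 4 groups, a shared spread, an empirical Bayes trend, and genes above 0 TPM in at least 1 library (20279). *p*-values were adjusted over all of them (Benjamini-Hochberg), and a gene was called under 0.05. On this scale, changes of genes with few TPM come out too small. The fit was tested on simulated data. The same fit over the 19 libraries of the *Pcgf1* line gave the lists of induced and reduced genes. Groups come from the sample labels. The *Ring1A/B* libraries were picked by file name, and since grouping by name was not allowed a fit over both lines was not run.

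The gene lists and libraries were chosen with earlier results of these data known. Genes named are marked members of the lists, the 10 highest and 10 lowest called genes of treated EBs against ESCs (mean TPM of 1 or more in either group, groups apart), the called genes of the difference of stage changes, the highest and lowest called gene of each list, and *Ring1* and *Rnf2*. Marked genes without a value in the text were left out for length. Group 1 to 3 genes come from the supplementary lists of the study, matched by symbol. Each result was recomputed with quantile normalization, with median-of-ratios scaling, with a pseudocount of 1, on genes whose mean TPM was 1 or more, on the compared groups alone, with the replicate number as a block, and without each library in turn. Tables and plots used Python (version 3.11.15), pandas (version 2.3.3) and matplotlib (version 3.10.9).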

Additional observations from a re-analysis of the deposited data

Results flagged for a closer look

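For 2 entries the stage change differed between treated and untreated cells past the threshold of the limma test of that difference. *Car4* gave -4.53 on the log2 scale (adjusted *p* = 0.00904), with adjusted *p* between 0.00409 and 0.107 over its alternatives, and the call was lost without untreated ESC replicate 1 (0.107) or replicate 2 (0.0762). *Mir7045*, a microRNA entry listed at 0 in treated ESCs and untreated EBs and at 2.48 and 2.63 TPM in untreated ESCs and 2.21 and 4.82 TPM in treated EBs, gave a fitted difference of 9.81, which depends on the pseudocount (3.94 with a pseudocount of 1) and is no measure of size. Its adjusted *p* was 0.00904 and ranged between 0.0110 and 0.107 over its alternatives, and the call was lost without untreated ESC replicate 1 (0.107) or 2 (0.0762) and without untreated EB replicate 1 (0.0531).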

How the results depend on the processing

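Counts of called genes depended on the settings, and the depth, which limits low genes, is unknown. Over leaving out each of the 8 libraries in turn, where a lone library is assumed to vary like the other groups, the counts ranged from 0 to 78 for treated EBs against ESCs (0 without untreated ESC replicate 1 or 2, 11 without untreated EB replicate 1 or 2, 44 and 78 without treated EB replicate 1 and 2, 47 without treated ESC replicate 2, against 27), from 156 to 533 for untreated EBs against ESCs (960 with all), from 0 to 42 for the difference of the stage changes (2 with all), from 22 to 52 for treated against untreated ESCs (515 with all) and from 9 to 357 for treated against untreated EBs (918 with all). In each of these 8 fits untreated cells had more stage calls than treated cells. A fit of only the groups compared gave 0, 464, 0 and 169 genes for treated stages, untreated stages, ESCs and EBs. A pseudocount of 1 gave 5 for the treated stages and 13 for the difference. Quantile normalization gave 42 for the treated stages (22 higher and 20 lower, 52.4% higher against 37.0%) and 207 for ESCs. Median-of-ratios scaling gave 14 higher and 15 lower genes for the treated stages (48.3% higher).

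The replicate number as a block gave 102 (treated stages, 55 higher and 47 lower), 2018 (untreated stages), 4 (difference), 1326 (ESCs) and 2056 (EBs). Libraries of the same number share only a number in the labels. Their deviations from the group means correlated with r between 0.106 and 0.381 across 13695 genes, for 2 numbers only.

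The median of the induced genes ranged from 0.18 to 0.63 in treated cells on leaving out libraries (0.63 without treated EB replicate 1, 0.18 without replicate 2) and from 1.12 to 1.30 in untreated cells, and that of the reduced genes from -0.34 to -0.11 (-0.11 without treated EB replicate 1) and from -0.79 to -0.62. With a pseudocount of 1 the untreated medians were 0.62 and -0.38. The cause was not tested. *Zic1* changed sign between treated stages after quantile normalization (-0.061). On leaving out libraries, log2 fold changes near 0 between treated stages also changed sign, with ranges of -0.35 to 0.38 (*Zic1*), -0.028 to 0.19 (*Rnf2*), -0.19 to 0.48 (*Ddx4*), -0.034 to 0.27 (*Ring1*), -0.26 to 0.055 (*Pou5f1*), -0.10 to 1.3 (*Zscan4c*), -0.41 to 0.025 (*Cdh1*) and -0.14 to 0.38 (*Eomes*).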
